A study of Mus musculus with 4 samples.

Results

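The cells described here were lung macrophages with much RNA of C1qa, C1qb and C1qc, the 3 chains of complement C1q, and of Pf4, Ccl12 and Ccl8. They were chosen by their RNA: a barcode needed at least 10 UMIs (counted molecules) over C1qa, C1qb and C1qc. It also needed at least 1 UMI over Pf4, Ccl12 and Ccl8, and no fewer of these than of Gpnmb, Trem2 and Syngr1 together. Barcodes with 2 or more of Ear1, Car4, Krt79, Fabp1, Plet1 and Marco, with 2% or more of their gene UMIs from S100a8 and S100a9, or with any Cd79a or Cd3e were left out. Of 19126 barcodes in the 2 libraries, 18985 passed limits of 200 detected genes or more and no more than 10% of UMIs from mitochondria, and 536 of these met the rule, 316 from the Plaur KO-labelled library and 220 from the WT-labelled library.

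C1q starts the classical complement pathway and also coats dying cells, and in tissues it is made largely by macrophages. Interstitial macrophages lie in the lung wall outside the airspaces, take up antigen and debris, carry MHC class II, and release chemokines. Pf4 (Cxcl4) is a chemokine of platelet granules that some tissue macrophages also make, and Ccl12 and Ccl8 are chemokines that act on monocytes and other leukocytes. Plaur encodes uPAR, the surface receptor of urokinase, which focuses plasminogen activation at the cell surface and interacts with integrins.

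The study compared Plaur KO mice with WT mice, all given as strain C57B6/J in the labels. Both genotypes were sensitized with LPS/OVA, that is lipopolysaccharide with the allergen ovalbumin, on days 0 and 7, and inhaled OVA as an aerosol on day 14. The design names 8 mice per genotype, and how many of them went into a library was not stated. Lungs were digested, cells positive for CD45.2, a leukocyte surface protein, were sorted, and RNA was read with 10x 3′ chemistry beside 5 DNA-tagged antibodies. The labels call the material both circulating leukocytes and a total lung cell lysate. There was 1 RNA library per genotype, so no difference between genotypes could be tested, and every interval given here is a 95% interval for counting error within a library only. The part of Plaur that was deleted was not given in the sources used here.

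The antibodies were counted through the DNA tags attached to them, which are shown because the surface values further on are counts of these letters. CD11b is an integrin chain of myeloid cells, CD14 a co-receptor for lipopolysaccharide, CCR3 the eotaxin receptor, Ly-6C a marker of classical monocytes, and ST2 the receptor of interleukin-33. Each tag is given 5′ to 3′.
CD11b: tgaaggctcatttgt
CD14: aaccaacagtcacgt
CCR3: tagaaccgtatccgt
Ly-6C: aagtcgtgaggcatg
ST2: gcgatggagcatgtt

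The members held 1810033 gene UMIs in the KO-labelled library and 1449863 in the WT-labelled library. The median member had 5320.5 UMIs in KO and 6142.5 in WT, against 2886 and 3288.5 over all kept barcodes. Of the members, 5 KO and 1 WT cells were called doublets by Scrublet and were kept. The libraries shared 16 barcode sequences, of which 1 was a KO member and none a WT member. RNA of T cells, NK cells or stroma (3 or more UMIs) was found in 12 KO and 1 WT members, and its part in the results was not tested except where a value without these cells is given. Levels below are CPM, the UMIs of a gene summed over the members of a library and scaled to a common total of all gene UMIs (counts per 1000000), and ratios are log2 of KO over WT.

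Plaur, the targeted gene, had 64.1 CPM (95% interval 53.0 to 76.9) in KO members and 156 (136 to 178) in WT members. Plaur UMIs were present in 67 of 316 KO members and in 104 of 220 WT members, so the KO-labelled library was not free of Plaur RNA. In B cells, Plaur was at 253 CPM in KO and 201 CPM in WT. Reads of this chemistry come from the 3′ end of transcripts, which may lie outside the deleted part, so these values do not check the genotype.

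The 3 C1q genes were at near-equal levels in both libraries. C1qa had 4154 CPM in KO and 3709 CPM in WT, C1qb 4449 and 4059, and C1qc 2502 and 2256. Every member of both libraries had C1qa and C1qb, and 1 KO member lacked C1qc. These genes lie side by side on chromosome 4, C1qa at chr4:136895916-136898844, C1qb at chr4:136880126-136886200 and C1qc at chr4:136889801-136892936 (RefSeq, GRCm38.p6).

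Of the chemokines in the rule, Pf4 had 1376 CPM in KO and 1506 in WT, Ccl12 had 2292 in KO and 2911 in WT, and Ccl8 had 1647 in KO and 1467 in WT. Ccl12 (chr11:82101845-82103399) and Ccl8 (chr11:82115185-82116799) lie next to each other in the chemokine cluster of chromosome 11, while Pf4 is at chr5:90772435-90773383. After each cell was thinned to 2000 UMIs, which left out 6 KO and 10 WT members, Ccl12 was detected in 68.7% of KO and 74.8% of WT members, Pf4 in 57.7% and 53.8%, and Ccl8 in 50.3% and 45.2%. Without thinning the shares for Pf4 were 67.7% in both libraries. In B cells, which should lack these RNAs and had median depths of 2246 UMIs in KO and 2460 in WT, 0.0897% of KO and 0.414% of WT cells had Pf4 at 1000 UMIs.

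The 3 chemokine RNAs were spread over the members in every combination. All 3 were present in 34.5% of KO and 35.9% of WT members, and Pf4 with Ccl12 but no Ccl8 in 17.7% and 20%. Ccl12 was the sole one of the 3 in 13.3% of KO and 19.1% of WT members, Pf4 in 9.81% and 8.18%, and Ccl8 in 4.43% and 3.18%. The exact binomial intervals of the 2 libraries overlapped for each of these shares.

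Cells lay on both sides of each limit of the rule. A C1q sum of 10 to 12 UMIs was found in 9 KO and 7 WT members, and 5 KO and 6 WT cells with 7 to 9 UMIs met all other limits. Both gene triples had equal sums in 10 KO and 5 WT members, and in 23 KO and 14 WT cells outside the rule Gpnmb, Trem2 and Syngr1 were ahead by 1 UMI. Pf4, Ccl12 and Ccl8 together had a single UMI in 14 KO and 10 WT members, and 38 KO and 33 WT cells with the C1q sum of the rule had no UMI of either triple. A further 15 KO and 8 WT cells were left out by the limit on S100a8 and S100a9 alone, 13 and 11 by Cd79a or Cd3e alone, and 4 and 2 by the alveolar genes alone.

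The members' RNA carried macrophage and antigen presentation genes known from interstitial macrophages. Cd74, the invariant chain of MHC class II, had 16428 CPM in KO and 14485 in WT, and H2-Aa, a class II chain, 7265 and 7172. Mrc1, the mannose receptor, had 3152 CPM in KO and 2872 in WT, and Csf1r, the receptor of the macrophage growth factor, 428 in each. Ccr2, the receptor that brings monocytes into tissue, had 443 CPM in KO and 415 in WT. Of 14 genes listed for perivascular macrophages, Mrc1 had the highest level, and Selenop, which carries selenium, followed with 852 CPM in KO and 820 in WT. Folr2 had 91.2 CPM in KO and 103 in WT members, Cd163 154 and 92.4, and Lyve1 21.5 and 17.2. In Gpnmb Trem2 macrophages of the same libraries, Folr2 had 1 UMI in KO and 4 in WT, Cd163 1 and 0, and Lyve1 none in either.

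Of RNA from other cell types, platelet genes were at or near 0 and some neutrophil RNA was present. The platelet genes Itga2b, Gp9 and Gp1bb had no UMI in any member, and the 15 genes of platelets and red cells summed to 5.52 CPM in KO and 11.04 in WT, although Pf4 is itself a platelet gene. Neutrophil genes summed to 925 CPM in KO and 680 in WT, and B and plasma cell genes to 117 and 110. The alveolar macrophage gene Ear1 had 1 UMI in KO and 0 in WT members, and Marco 2 and 32. The rule itself limited Ear1, Marco, S100a8, S100a9 and Cd79a, so their low levels were set by the choice of cells.

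**Figure D1:**
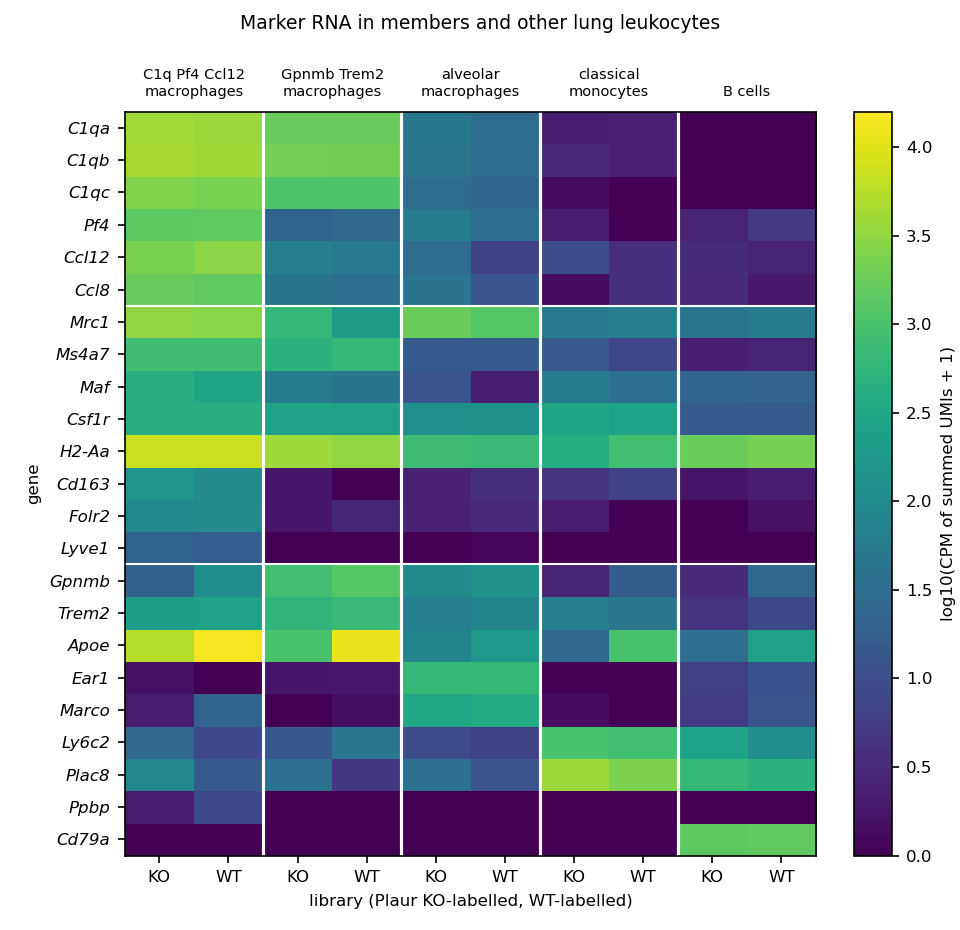
Heat map of the levels of 23 genes (rows) in 5 cell populations of the KO-labelled and WT-labelled libraries (columns), as log10 of CPM plus 1. C1q, Pf4, Ccl12 and Ccl8 chose the members in the left columns, and Apoe is lower in KO than in WT in all 5 populations.

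The members made up 3.15% (2.81 to 3.51) of kept barcodes in KO and 2.46% (2.15 to 2.80) in WT, a ratio of 1.28 (1.07 to 1.53). Among C1q-high macrophages, that is members and Gpnmb Trem2 macrophages together, the members were 67.4% of 469 in KO and 47.3% of 465 in WT. Gpnmb Trem2 macrophages were 1.52% of kept barcodes in KO and 2.74% in WT, and alveolar macrophages 4.73% and 9.49%. Classical monocytes were 2.88% in KO and 1.16% in WT. The sort and the number of cells loaded can set such shares, and with 1 library per genotype they cannot be told apart from a difference between genotypes.

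Over the 6442 genes with at least 50 UMIs in the members, 309 (4.8%) were more than 1.5-fold higher in KO and 285 (4.42%) more than 1.5-fold lower, and the median log2 ratio was 0.02. With an interval that also excluded 0, 218 (3.38%) were higher and 222 (3.45%) lower. The genes named next had the ratios farthest from 0 by the nearer end of their interval, so their size is a description. The highest included Arg1 and Mmp12, both known from activated macrophages. Arg1, which makes ornithine from arginine, had 173 CPM in KO and 49.0 in WT, a log2 ratio of 1.82 (1.44 to 2.21). Its UMIs were in 64 of 316 KO and 18 of 220 WT members. Mmp12, the macrophage elastase, had 269 CPM in KO and 80.0 in WT, a log2 ratio of 1.75 (1.45 to 2.05), in 57 KO and 24 WT members. At 2000 UMIs per cell, Arg1 was detected in 14.2% of KO and 3.33% of WT members and Mmp12 in 14.2% and 7.14%, against at most 0.179% of B cells at 1000 UMIs.

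Tgm2, a transglutaminase that cross-links proteins, had 710 CPM in KO and 352 in WT, a log2 ratio of 1.01 (0.86 to 1.16), and was found in 212 KO and 127 WT members. Hbegf, a ligand of the EGF receptor, had 418 CPM in KO and 226 in WT, a log2 ratio of 0.89 (0.70 to 1.08), and was detected in 28.4% of KO and 25.7% of WT members at 2000 UMIs, and in 21.7% and 15.5% at 1000 UMIs. H2-M2, a non-classical MHC class I gene, had 70.7 CPM in KO and 14.5 in WT, in 23 and 7 cells. Gm21860, an uncharacterized gene, had 109 UMIs spread over 82 KO cells and 4 UMIs in 4 WT cells, a log2 ratio of 4.45 (3.05 to 6.35). Gm21860 was also higher in KO in Gpnmb Trem2 macrophages, with 11 against 3 UMIs.

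Single cells held a large share of the UMIs of some genes with high ratios. Ccl11, an eotaxin, had 134 UMIs in KO and 12 in WT, but 117 of the KO UMIs were in 1 cell, and the log2 ratio was 0.25 without the members that held T cell, NK cell or stromal RNA. Timp1, an inhibitor of metalloproteinases, had 214 CPM in KO and 64.1 in WT, with 96 of 388 KO UMIs in 1 cell, and its log2 ratio of 1.74 was 1.12 without the 5 cells of each library that held most of it. The others of the 12 highest were Apol7c, Tsc22d3, Ppa1 and Hsph1, with log2 ratios of 1.24, 1.22, 1.23 and 1.86.

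**Figure D2:**
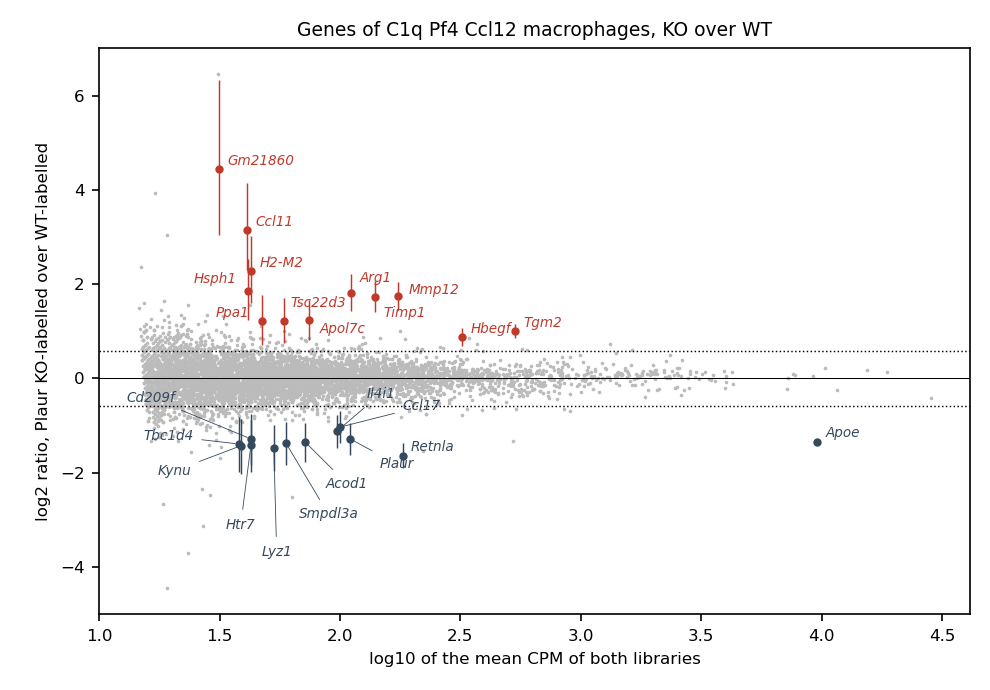
Log2 of the KO-labelled level divided by the WT-labelled level in members (vertical axis) against log10 of the mean CPM of both libraries for genes with at least 50 UMIs and a UMI in each library. Labelled points are the 12 highest and 12 lowest genes with 95% counting intervals, grey points all other genes including markers of other cell types, and dotted lines 1.5-fold; Apoe stands apart at the right with a log2 ratio of -1.34.

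The most abundant of the 12 lowest genes was Apoe, apolipoprotein E, which carries cholesterol and other lipids out of macrophages. Apoe had 5432 CPM (5325 to 5540) in KO members and 13753 (13563 to 13945) in WT members, a log2 ratio of -1.34 (-1.38 to -1.31). No Apoe UMI was found in 89 of 316 KO members (28.2%) and in 5 of 220 WT members (2.27%). The median member had 2881 CPM in KO and 12812 in WT, and 60.8% of KO and 91.8% of WT members had 1000 CPM or more. Single cells of the 2 libraries overlapped, since the third quartile of KO members was 10318 CPM and the first quartile of WT members 5583 CPM.

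Apoe was lower in KO in the other populations too. Gpnmb Trem2 macrophages had 1000 CPM in KO and 11942 in WT, a log2 ratio of -3.58, with no UMI in 66.0% of KO and 4.08% of WT cells. Classical monocytes had 26.7 CPM in KO and 984 in WT, alveolar macrophages 77.6 and 180, and B cells 30.8 and 256. Of B cells, 0.534% in KO and 6.55% in WT had 1000 CPM or more. B cells are not known as a source of Apoe, and the part of free RNA in the ratio of the members was not tested.

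Apoe (chr7:19696244-19701310) and Apoc2 (chr7:19671579-19677941), another apolipoprotein gene, lie on the chromosome of Plaur (chr7:24460937-24475970). Apoc2, named after its value was seen, had 1 UMI in KO and 27 UMIs in 22 WT members. Of 100 genes measured within 10 Mb of Plaur, 4 (4%) were more than 1.5-fold higher and 8 (8%) lower in KO, against 4.75% and 4.33% of 6256 genes elsewhere. The higher ones included C5ar1, the receptor of complement fragment C5a, and the lower ones Relb, a subunit of NF-kB, besides Apoe and Plaur themselves. Whether this stretch of chromosome 7 differed in sequence between the mice was not tested.

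**Figure D3:**
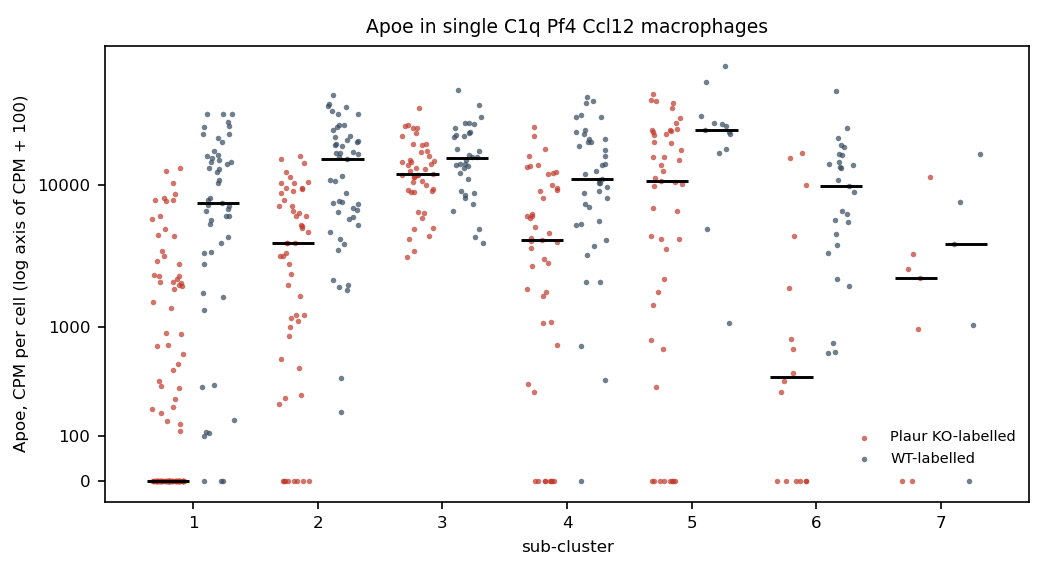
Apoe per cell (CPM on a log axis of CPM plus 100) in members of each sub-cluster, KO-labelled cells left of WT-labelled cells, with the median as a line. The median is 0 in KO and 7513 CPM in WT cells of sub-cluster 1, and 11903 and 15319 CPM in sub-cluster 3.

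The 12 lowest genes also included several enzymes. Acod1, which makes itaconate, had 40.3 CPM in KO and 103 in WT, a log2 ratio of -1.35 (-1.77 to -0.94), but -0.45 after thinning to 2000 UMIs. Kynu, an enzyme of tryptophan breakdown, had 21.0 CPM in KO and 56.6 in WT, and Smpdl3a, a phosphodiesterase, 33.1 and 86.2. Htr7, a serotonin receptor, had 23.2 CPM in KO and 62.1 in WT. Il4i1, an amino acid oxidase, had 61.3 CPM in KO and 133 in WT, with a log2 ratio of -1.12 that was -0.18 after thinning.

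Several low ratios rested on few cells. Retnla, a product of alternatively activated macrophages, had 88.4 CPM in KO and 275 in WT, from 14 and 15 cells, with 78 of 160 KO UMIs and 135 of 399 WT UMIs in 1 cell each. Tbc1d4 had 40 of its 80 WT UMIs in 1 cell, and its log2 ratio of -1.39 turned to 0.79 without the 5 cells of each library that held most of it. Ccl17, a ligand of CCR4, had 128 of 195 WT UMIs in 1 cell, and its log2 ratio of -1.03 likewise turned to 1.49. The Ccl17 ratio was also above 0 without the 1% of members with most UMIs, at 0.51, and among members with at least 2 UMIs of Pf4, Ccl12 and Ccl8, at 2.74. Lyz1, a lysozyme, had 28.2 CPM in KO and 77.9 in WT, with a log2 ratio of -1.47 that was -0.49 without the 5 cells of each library holding most of it. Cd209f, a lectin, had 24.9 CPM in KO and 60.7 in WT, in 12 and 16 cells, with 37 of 88 WT UMIs in 1 cell.

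Gene lists were read against all 8601 genes with at least 20 UMIs, of which 51.4% were higher and 48.6% lower in KO, 8.06% more than 1.5-fold higher and 7.6% more than 1.5-fold lower, with a median log2 ratio of 0.01. Among lists of pathways, the medians farthest from this were those of the heat shock and the glucocorticoid-responsive genes. Of 14 heat shock genes, 13 were higher in KO and 8 of them by more than 1.5-fold, with a median log2 ratio of 0.60 (0.57 to 0.67 over the alternatives tried). These genes encode chaperones that fold proteins. Hsph1 had 65.2 CPM in KO and 17.9 in WT, a log2 ratio of 1.86 (1.24 to 2.53), in 93 KO and 25 WT members. At 2000 UMIs, Hsph1 was detected in 12.3% of KO and 1.90% of WT members. At 1000 UMIs it was detected in 6.69% of KO and 2.74% of WT members, and in 3.68% of KO and 1.59% of WT B cells. Hspe1, the partner of the mitochondrial chaperonin, had 460 CPM in KO and 277 in WT, a log2 ratio of 0.73 (0.56 to 0.91). Hsp90ab1 had 1960 CPM in KO and 1286 in WT, a log2 ratio of 0.61 (0.53 to 0.69). Dnajb1 was the 1 gene on the other side, with 24.3 CPM in KO and 29.7 in WT.

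Promoter windows of Hsph1 (chr5:149636287-149636586, minus strand) and Hspe1 (chr1:55087898-55088197, plus strand) are shown because both genes were higher in KO. They come from a RefSeq table for GRCm38.p6 that gives 250 bases before to 50 bases after a start, read 5′ to 3′ on the strand of the gene. The table lists 2 overlapping windows for Hsph1, of which 1 is shown, and the start it uses lies inside the span annotated for the gene. Capitals mark the letters TTCNNGAA or GAANNTTC, a pair of the repeats that heat shock factors are known to bind, and the 2 spellings can overlap.
Hsph1: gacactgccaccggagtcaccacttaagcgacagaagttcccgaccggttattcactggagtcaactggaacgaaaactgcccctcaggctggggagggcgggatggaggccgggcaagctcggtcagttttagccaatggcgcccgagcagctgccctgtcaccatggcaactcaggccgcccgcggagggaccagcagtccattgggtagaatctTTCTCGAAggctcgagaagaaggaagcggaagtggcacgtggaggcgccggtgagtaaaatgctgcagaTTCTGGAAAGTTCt
Hspe1: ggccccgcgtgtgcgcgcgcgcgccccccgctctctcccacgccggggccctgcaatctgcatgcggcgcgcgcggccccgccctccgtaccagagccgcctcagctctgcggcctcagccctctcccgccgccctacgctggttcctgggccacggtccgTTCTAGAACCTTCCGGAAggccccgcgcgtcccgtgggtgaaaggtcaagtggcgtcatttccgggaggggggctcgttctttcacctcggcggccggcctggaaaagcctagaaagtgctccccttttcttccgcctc

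This motif was found on either strand in 15.1% of 32851 promoter windows of the same length. Counted by gene, at least 1 window held it in 8 of the 11 heat shock genes that had a window, and in 16.97% of all 27025 genes. The list was chosen as heat shock genes, so its share with this motif does not bear on the ratios of KO over WT. A match describes the letters and is not a bound site.

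Of 11 glucocorticoid-responsive genes, 9 were higher in KO and 6 of these by more than 1.5-fold, with a median log2 ratio of 0.74. With each sub-cluster given the same weight, the median was 0.36. Tsc22d3, which encodes the glucocorticoid-induced protein GILZ, had 81.8 CPM in KO and 35.2 in WT, a log2 ratio of 1.22 (0.75 to 1.71). It was a leading gene of sub-cluster 5, described below, which had 47 KO and 13 WT cells. Within sub-clusters its interval excluded 0 in 1 and 5 only. At 1000 UMIs, Tsc22d3 was also detected in more B cells in KO, 44.5% against 33.8% in WT. Mt1 and Mt2, metallothioneins that bind zinc and copper, had 1656 CPM in KO and 991 in WT, and 442 and 245. Their log2 ratios were 0.74 (0.65 to 0.83) and 0.85 (0.67 to 1.04). At 2000 UMIs, Mt2 was detected in 29.7% of KO and 19.0% of WT members. Sgk1 and Errfi1, on the same list, were lower in KO, with log2 ratios of -0.48 and -0.49.

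Promoter windows of Mt1 (chr8:94178839-94179138) and Mt2 (chr8:94172368-94172667), both on the plus strand, are shown for comparison, from the same RefSeq table. Capitals mark TGCACNC or TGCGCNC on either strand, the core of the element through which metals are known to induce metallothioneins.
Mt1: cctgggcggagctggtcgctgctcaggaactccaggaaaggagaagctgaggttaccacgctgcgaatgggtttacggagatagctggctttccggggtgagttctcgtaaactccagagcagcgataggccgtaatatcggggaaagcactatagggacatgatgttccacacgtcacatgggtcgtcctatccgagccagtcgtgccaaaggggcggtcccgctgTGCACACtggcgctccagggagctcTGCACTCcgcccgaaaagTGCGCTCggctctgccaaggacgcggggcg
Mt2: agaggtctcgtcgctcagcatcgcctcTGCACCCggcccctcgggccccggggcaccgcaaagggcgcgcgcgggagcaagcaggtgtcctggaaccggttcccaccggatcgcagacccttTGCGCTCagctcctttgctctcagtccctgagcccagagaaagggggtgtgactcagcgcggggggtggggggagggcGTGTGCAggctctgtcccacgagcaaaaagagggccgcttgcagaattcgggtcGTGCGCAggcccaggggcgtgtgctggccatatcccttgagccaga

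This core was in 25.7% of all promoter windows. Counted by gene, it was in 4 of the 15 genes of the metallothionein and oxidative stress list that had a window, and in 28.2% of all genes. The list as a whole had 6 genes higher and 12 lower in KO, so the metallothioneins stood with Hmox1, haem oxygenase, at 265 CPM in KO and 171 in WT, against members such as Sqstm1, at 125 and 177.

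**Figure D4:**
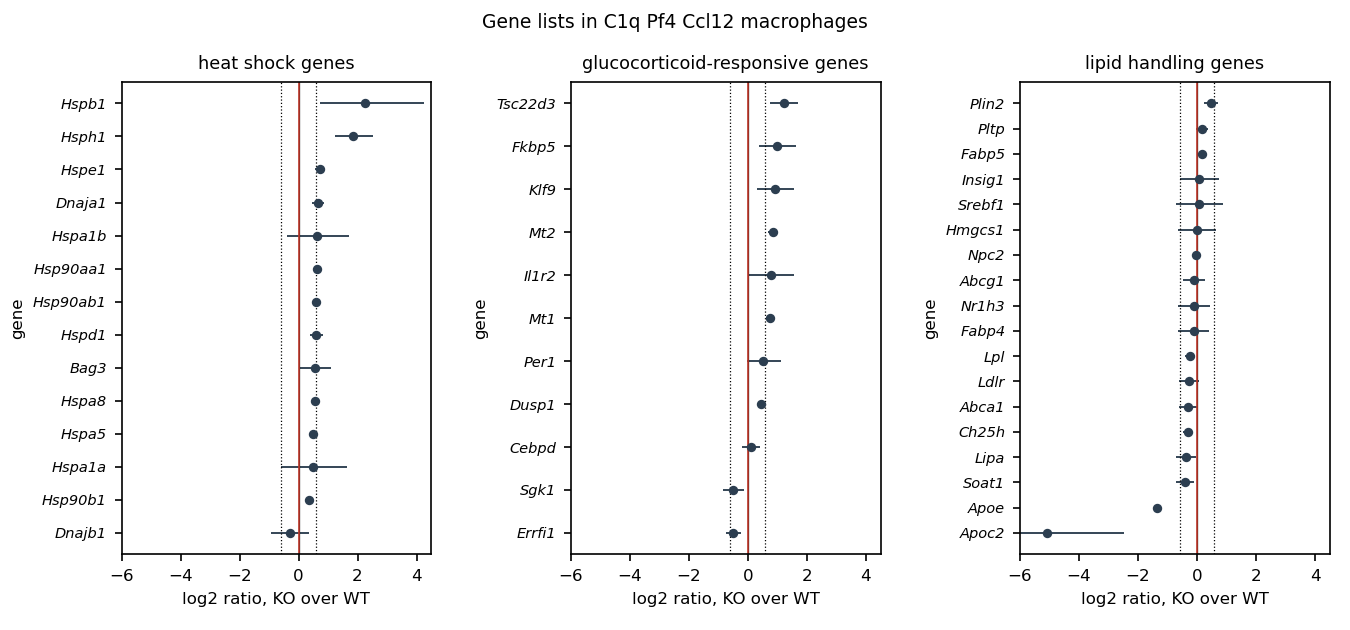
Log2 of the KO-labelled level divided by the WT-labelled level in members for each measured gene of 3 lists, with 95% counting intervals, the solid line at 0 and dotted lines at 1.5-fold. Of the heat shock genes 13 of 14 lie right of 0, and the interval of Apoc2, to -10.43, runs past the left edge.

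Chemokines, the RNAs that give these cells their name, were mixed, with 10 of 19 measured genes higher and 9 lower in KO. Besides those of the rule, Ccl7, a ligand of CCR2, was among the most abundant at 4080 CPM in KO and 3924 in WT. Ccl2, another CCR2 ligand, named after its value was seen, had 2548 CPM in KO and 1980 in WT, and Cxcl9, which attracts T cells through CXCR3, 2165 and 1897. Cxcl1, which attracts neutrophils, had 57 UMIs in KO and 18 in WT, a log2 ratio of 1.34 (0.56 to 2.20). Cxcl13, which attracts B cells, had 129 CPM in KO and 230 in WT, from 14 and 16 cells. Ccl5 had 298 CPM in KO and 748 in WT, but 391 of the 1085 WT UMIs were in 1 cell.

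Of 12 chemoattractant receptors, 8 were higher in KO, with a median log2 ratio of 0.25. C5ar1 had 383 CPM in KO and 251 in WT, a log2 ratio of 0.61 (0.42 to 0.80), in 221 KO and 133 WT members. Ptafr, the receptor of platelet-activating factor, had 106 CPM in KO and 73.1 in WT. Complement genes other than C1q were mixed, with 6 of 14 higher in KO, and C3, the central component, had 675 CPM in KO and 746 in WT. The MHC class II list had 6 of 11 genes higher in KO and a median of 0.02.

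More interferon and NF-kB genes were lower than higher in KO, by small amounts. Of 31 genes induced by interferon-gamma, 21 were lower in KO, with a median log2 ratio of -0.14, and Irf1, a transcription factor of that response, had 170 CPM in KO and 286 in WT. The median of this list was 0.003 with each sub-cluster weighted alike. Of 36 genes induced by type I interferon, 22 were lower, with a median of -0.07. For NF-kB and cytokines, 20 of 27 genes were lower in KO, with a median of -0.15. Relb had 75.1 CPM in KO and 134 in WT, a log2 ratio of -0.84 (-1.17 to -0.52). Of 30 immediate early genes, 21 were lower, among them Egr1 with 233 CPM in KO and 333 in WT, while Dusp2, a phosphatase, was higher with 189 and 104.

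Of the plasminogen system and matrix proteases, 10 of 17 genes were higher and 7 lower in KO. Apart from Mmp12, Timp1 and Plaur, Thbs1, a matrix glycoprotein, had 30.9 CPM in KO and 15.2 in WT. Plau, the urokinase that binds uPAR, was named after its value was seen and had 58.0 CPM in KO and 57.9 in WT. Integrin genes had 7 of 17 higher, with Itgam, which encodes CD11b, at 193 CPM in KO and 223 in WT. Among lysosomal genes 16 of 21 were lower, with a median of -0.07, led by Lyz1 and by Ctsd, a cathepsin, at 660 CPM in KO and 1037 in WT. Among lipid handling genes 12 of 18 were lower and the list summed to 8970 CPM in KO and 17413 in WT, most of it Apoe. Plin2, which coats lipid droplets, went the other way at 220 CPM in KO and 160 in WT.

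The remaining lists were mixed. Macrophage core genes had 13 of 21 higher in KO, and the 1 past 1.5-fold was Maf, a transcription factor of tissue macrophages, at 443 CPM in KO and 291 in WT. Perivascular macrophage genes had 5 of 14 higher and 9 lower, with a median log2 ratio of -0.13. Cd163, a haemoglobin scavenger receptor, was the 1 gene more than 1.5-fold higher, with a log2 ratio of 0.74 (0.44 to 1.05). More than 1.5-fold lower were 4 genes, 3 of them with an interval that excluded 0, such as Cd209f at -1.29 (-1.84 to -0.75). For Cd209f, 13 of 45 KO UMIs and 37 of 88 WT UMIs were in 1 cell each. Type 2 and alternative activation genes had 10 of 19 higher, with Mgl2, a lectin, at 257 CPM in KO and 174 in WT. Scavenging genes had 8 of 17 higher, Fc and pattern receptors 11 of 23, iron and haem genes 4 of 10, growth factors 6 of 15, glycolysis 11 of 18 and cell cycle genes 9 of 15.

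Marker lists of other cells differed between the libraries in places. T and NK cell genes had a median log2 ratio of 3.79, with Gzma, a granzyme, at 111 UMIs in 6 KO cells and 1 UMI in WT. Without the members holding such RNA, this median was -0.20. Epithelial, endothelial and stromal genes summed to 161 CPM in KO and 87.6 in WT, led by Scgb1a1, the club cell secretoglobin. Dendritic cell genes had 10 of 13 lower, with a median of -0.32, and Fscn1, of migratory dendritic cells, at 17.1 CPM in KO and 46.9 in WT. Classical monocyte genes had 8 of 14 higher, with Plac8 at 87.3 CPM in KO and 14.5 in WT, and Fn1, fibronectin, at 113 and 328. Of the Plac8 UMIs, 129 of 158 in KO and 11 of 21 in WT were in sub-cluster 6, which is described below. Outside sub-cluster 6, Fn1 had 59.2 CPM in KO and 61.2 in WT. The part of the other cell types in the ratios above was not tested.

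The members were not uniform. Clustering of both libraries together gave 7 sub-clusters, which are described by their leading genes and carry no names. Plaur was kept out of the clustering, but the other genes read by sub-cluster were not, so the grouping itself can set part of their levels. Sub-cluster 1 (103 KO and 51 WT cells) was led by Mmp12, Spint1 and Ndrg1, sub-cluster 2 (53 and 49) by Rnd3, Nrg1 and Batf, and sub-cluster 3 (45 and 34) by Pla2g2d, Cd163 and Gja1. Sub-cluster 4 (45 and 41) was led by Cxcl9, Calhm6 and Il27, sub-cluster 5 (47 and 13) by genes that included Hpgd and Cx3cr1, sub-cluster 6 (16 and 27) by Gpnmb, Slpi and S100a9, and sub-cluster 7 (7 and 5) by the division genes Ube2c, Birc5 and Top2a. Neutrophil genes were among those leading sub-cluster 6.

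Pf4 was highest in sub-cluster 3, with 3637 CPM in KO and 3761 in WT, and in sub-cluster 5, with 2497 and 3782, against 338 and 216 in sub-cluster 1. The perivascular markers Cd163 and Folr2 were highest in sub-cluster 3, Cd163 with 837 CPM in KO and 496 in WT, and Folr2 with 379 and 511. Ccl24, an eotaxin, had 3337 CPM in KO and 3527 in WT in sub-cluster 3. Ccr2 was at 0 in KO and 19.1 CPM in WT in sub-cluster 3, against 284 to 709 in KO and 240 to 721 in WT in sub-clusters 1, 2, 4, 5 and 6. Cxcl9 was concentrated in sub-cluster 4, with 9981 CPM in KO and 6889 in WT.

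The KO and WT values within sub-clusters show where the ratios above lay. Apoe was lower in KO in all 7, least in sub-cluster 3 with 13414 CPM in KO and 17284 in WT, and most in sub-cluster 1 with 1209 and 10176. Hsph1 and Hspe1 were each higher in KO in sub-clusters 1 to 6, Hspe1 for instance with 502 CPM in KO and 291 in WT in sub-cluster 1. Mt1 was higher in KO in sub-clusters 1 to 4, up to 4766 CPM in KO and 2554 in WT in sub-cluster 3, and lower in sub-cluster 5 with 654 and 1686. Plaur was lower in KO in sub-clusters 1 to 4 and 6, and in sub-cluster 5 it had 16 UMIs in KO and 2 in WT.

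Arg1, Mmp12 and Hbegf were each concentrated in some of the cells. Arg1 had 129 UMIs in KO and 3 in WT in sub-cluster 3, and 58 and 1 in sub-cluster 1. In sub-cluster 6 Arg1 had 7 UMIs in KO and 22 in WT, or 51.0 and 91.2 CPM. The interval of that log2 ratio, -2.31 to 0.44, included 0. Mmp12 had 653 CPM in KO and 154 in WT in sub-cluster 1, and 0 UMIs in KO and 2 in WT in sub-cluster 3. Hbegf had 1733 CPM in KO and 516 in WT in sub-cluster 3. Retnla ran against Arg1 in sub-cluster 3, with 8 UMIs in KO and 218 in WT. In sub-cluster 2 Retnla had 381 CPM in KO and 301 in WT, and in sub-cluster 5 it had 209 and 737. All Retnla of the members was in 14 KO and 15 WT cells, with 135 of 399 WT UMIs in 1 cell.

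**Figure D5:**
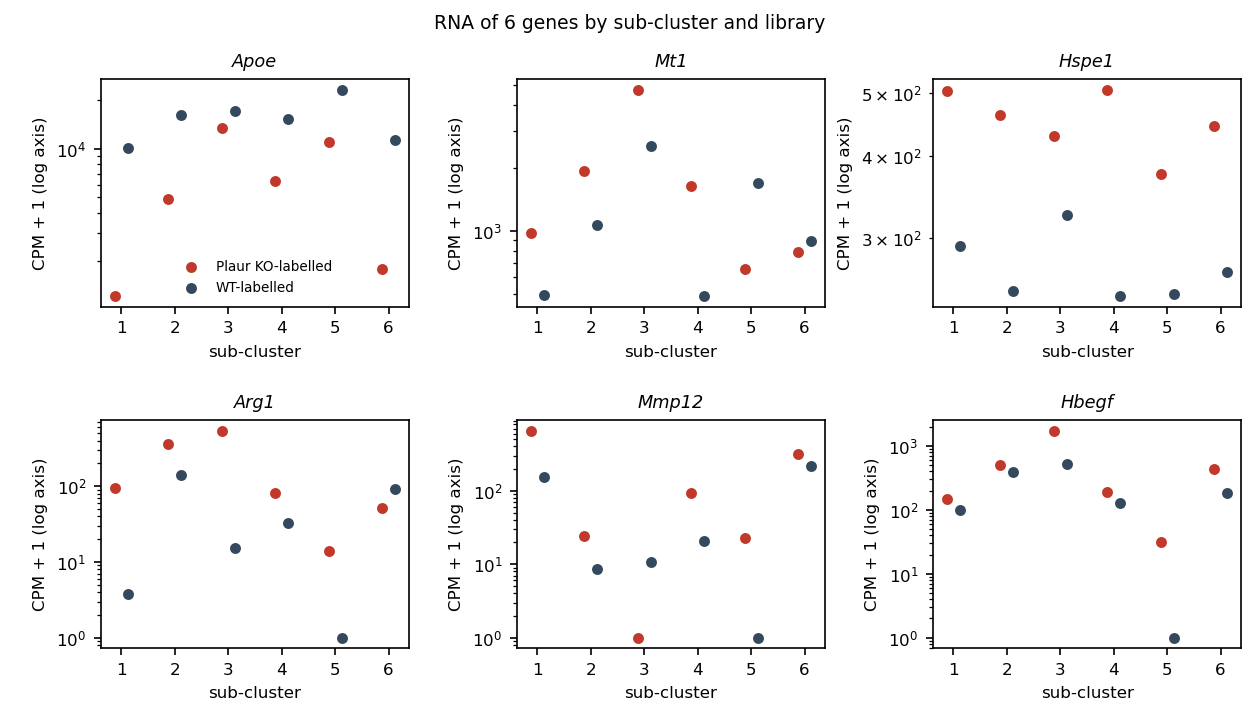
Levels of 6 genes (CPM plus 1, log axes that differ between panels) in the members of sub-clusters 1 to 6, KO-labelled points left of WT-labelled points, 1 value per library. Apoe is lower in KO in each of the 6, Hspe1 higher in each, and Arg1 in sub-cluster 3 is 537 CPM in KO and 14.3 in WT.

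Members with a Pf4 UMI at 2000 UMIs per cell differed from those without in the same way in both libraries for most genes compared, with 179 against 131 cells in KO and 113 against 97 in WT. Cells with Pf4 had more Maf, 684 against 221 CPM in KO and 473 against 149 in WT, and more F13a1, a clotting factor chain, 299 against 26.7 and 310 against 51.5. Ccl2 was at 3751 against 1389 CPM in KO and 2858 against 1268 in WT. Ccr2 was lower in cells with Pf4, at 341 against 565 CPM in KO and 305 against 711 in WT, as was Cd72, a lectin-like receptor also found on B cells, at 120 against 317 and 92.9 against 407. Apoe was higher in cells with Pf4, 9291 against 2240 CPM in KO and 16827 against 11247 in WT. Cx3cr1, the fractalkine receptor, was higher with Pf4 in KO, 184 against 72.5 CPM, and not in WT, 92.9 against 129. Median depths before thinning were 5037 against 5871 UMIs in KO and 6173 against 6281 in WT. Pf4 is part of the rule, so a member with no Pf4 UMI before thinning was admitted through Ccl12 or Ccl8. The rule itself can therefore set part of these differences in both libraries, and the values are a description.

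The members were set against other phagocytes of the same libraries, each chosen by its RNA, so these values describe and do not test. The 2 libraries give 2 values of each difference. Against Gpnmb Trem2 macrophages, the nearest population, 217 of 6219 genes (3.49%) were more than 2-fold higher in members in both libraries and 164 (2.64%) lower. Cxcl13 had 129 CPM in KO members and 230 in WT members, against 1 UMI in KO and 2 in WT Gpnmb Trem2 macrophages. Ccl24 had 633 CPM in KO and 843 in WT members, against 30.4 and 3.44. Mrc1 had 3152 and 2872 CPM, against 629 in KO and 193 in WT, and Selenop 852 and 820 against 117 and 106. Maf and F13a1 were also among the 12 highest, with log2 ratios of members over Gpnmb Trem2 macrophages of 2.94 and 3.31 in KO and 2.79 and 3.86 in WT.

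Lower in members than in Gpnmb Trem2 macrophages were Cd9, a tetraspanin, at 281 CPM in KO and 283 in WT members against 1272 and 1392, and Sgk1, a kinase, at 64.6 and 90.4 against 598 and 725. Acod1 had 40.3 and 103 CPM against 332 and 561, and Inhba, an activin chain, 7.18 and 17.2 against 229 and 102. F10, coagulation factor X, Chil3, a chitinase-like protein, Il7r and Slc7a11 were the others of the 8 lowest, with log2 ratios from -4.04 to -2.24 in KO and from -2.42 to -2.25 in WT.

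Against alveolar macrophages, 657 of 7840 genes (8.38%) were higher in members in both libraries and 859 (11%) lower. Ccl7, C3ar1, the receptor of complement fragment C3a, and Ms4a7 had log2 ratios of members over alveolar macrophages of 6.27, 6.10 and 5.81 in KO and 6.35, 6.16 and 5.73 in WT. Krt19, a keratin, had no UMI in members of either library, which allows up to 1.66 CPM in KO and 2.07 in WT (3 counts per library), against 173 CPM in KO and 233 in WT alveolar macrophages. Egfem1, Patj, Flvcr2 and Erc2 were likewise at 0 in members.

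Against classical monocytes, 546 of 5623 genes (9.71%) were higher in members in both libraries and 535 (9.51%) lower. Igf1, a growth factor, had 172 CPM in KO and 183 in WT members and no UMI in monocytes, which allows up to 1.14 CPM in KO and 4.06 in WT. Ch25h, which makes 25-hydroxycholesterol, had 424 CPM in KO and 529 in WT members, against 1 UMI in KO and 4 in WT monocytes. Plac8 had 87.3 and 14.5 CPM in members, against 3865 and 2377 in monocytes, and Ly6c2, part of the Ly-6C antigen and of the rule for monocytes, 23.2 and 7.59 against 981 and 852.

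The same genes can be read between genotypes in Gpnmb Trem2 macrophages, which share the libraries but no cells with the members. Arg1, Mmp12, Hbegf, Mt1 and Hsph1 had log2 ratios of KO over WT of 2.25, 1.08, 2.47, 1.28 and 1.29 there, all above 0 as in the members. They are only some of the genes named above, and the share of all genes that ran alike is not given here. Retnla ran the other way, at -1.64 in the members and 4.05 in Gpnmb Trem2 macrophages. Plaur had a log2 ratio of -2.20 there and -1.28 in the members. Fn1 had 0.44 there and -1.54 in the members. The members' Fn1 ratio lay in sub-cluster 6 (16 KO and 27 WT cells), with 765 CPM in KO and 1666 in WT. In all other members Fn1 had 59.2 CPM in KO and 61.2 in WT.

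At the cell surface, members carried more CD11b antibody than B cells in both libraries. The mean was 39.6 UMIs per cell in KO and 61.6 in WT members, against 11.4 and 10.5 in B cells. Over B cells of the same library, the log2 ratio was 1.80 in KO and 2.55 in WT, a difference of -0.75. The medians lay closer, 30 UMIs in KO and 34 in WT. CD14 averaged 3.85 UMIs in KO and 5.30 in WT members, against 2.57 and 3.02 in B cells, while Cd14 RNA was at 554 CPM in KO and 457 in WT.

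Ly-6C antibody averaged 22.6 UMIs in KO and 11.7 in WT members, but B cells had 20.8 and 10.8, and the log2 ratio over B cells was 0.12 in each library. Members and B cells were therefore at like levels of Ly-6C within each library. CCR3 averaged 1.47 UMIs in KO and 1.36 in WT members, and ST2 1.19 and 0.94, against 1.07 and 1.11, and 0.885 and 0.763, in B cells. RNA of Ccr3 (5 UMIs in KO and 2 in WT) and of Il1rl1, which encodes ST2 (17 and 3), was scarce.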

How the data were processed

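Gene and antibody counts (UMIs) of 1 Plaur KO-labelled and 1 WT-labelled library were used as deposited. Per the submitters' processing notes, the authors made these counts with Cell Ranger (7.0.0 and 7.1.0 are named) on mm10, and the deposited matrix headers give 7.0.0. Barcodes under 200 genes or over 10% of UMIs from mitochondria were left out. UMIs of the members were summed per library and divided by the library's sum over gene features (CPM). Intervals at 95% are exact Poisson for CPM, exact conditional binomial for ratios and Clopper-Pearson for shares, and they were checked on simulated counts. Cells of 1 library are not replicates, so no test was run. Members, gene lists and the rule for named genes were chosen with earlier results of these data known. Named genes were those of the barcode rule, the 12 highest and 12 lowest KO over WT ratios (at least 100 UMIs, by the interval end nearest 0, without marker genes of other cells), the antibody targets, up to 3 genes at each end of each list, and the genes farthest from other populations. Sub-clusters came from scanpy 1.11.5 (2000 variable genes, 20 components, 15 neighbours, Leiden resolution 0.5). Scrublet used an expected doublet share of 8% and its calls were kept. Alternative scalings used TMM factors from edgeR 4.0.16 and size factors from DESeq2 1.42.0. Of the listed symbols, 4 were not analysed here. Some genes that the rule names are not reported here. Positions and promoters are from RefSeq tables for GRCm38.p6, which matched 6356 of the 6442 genes.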

Additional observations from a re-analysis of the deposited data

Results flagged for a closer look

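For the genes named next, the KO over WT ratio of the members ran against that of Gpnmb Trem2 macrophages in the same libraries, with both counting intervals away from 0. How many of all genes did so, or ran the same way, is not given here. The difference between the populations was not tested. Retnla had a log2 ratio of -1.64 in members and 4.05 in Gpnmb Trem2 macrophages, and in members it rested on 14 KO and 15 WT cells. The neutrophil genes S100a8, S100a9 and Retnlg had 1.00, 0.67 and 1.56 in members and -1.11, -1.65 and -1.83 in Gpnmb Trem2 macrophages. In members, 1 KO cell held 167 of 428 S100a8 UMIs and 211 of 579 S100a9 UMIs, the rule limited both genes, and their ratios turned to -0.47 and -0.68 without the 1% of members with most UMIs. For Retnlg, 43 of 114 KO UMIs were in 1 cell, and the ratio was 0.47 without that 1% of members. Ly6c2 of monocytes had 1.61 in members and -1.67 in Gpnmb Trem2 macrophages, but 21 of 42 KO UMIs of the members were in 1 cell, and the members' ratio turned to -0.98 with cells thinned to 2000 UMIs. Cxcl3, a neutrophil chemokine, had 1.01 and -1.13, with 110 of 141 KO UMIs and 48 of 56 WT UMIs of the members in 1 cell each, and the members' ratio turned to -1.15 at a C1q minimum of 20 UMIs. Mir99ahg, a long non-coding RNA, had -0.63 in members and 0.81 in Gpnmb Trem2 macrophages, and G0s2, a lipase inhibitor, 0.87 and -0.88.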

How the results depend on the processing

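With 1 library per genotype, the depth of the members limits only counting error, and a second library could move any value by more. No paired analysis was possible because each genotype has 1 RNA library. The ratio of the members' share kept its direction in all 9 alternatives. Counts of genes past 1.5-fold in KO, higher and lower, were 693 and 654 of 8601 genes at a minimum of 20 UMIs. They were 49 and 48 of 2676 at 200 UMIs, 3382 and 2746 of 14931 at 1 UMI, and 203 and 154 of 3319 with cells thinned to 2000 UMIs. Under TMM factors they were 325 and 275 of 6442. At a minimum of 200 UMIs, genes past 2-fold higher and lower in members numbered 120 and 72 against Gpnmb Trem2 macrophages, 363 and 450 against alveolar macrophages, and 252 and 182 against classical monocytes. With cells thinned to 1000 UMIs these were 84 and 43, 266 and 344, and 176 and 91.

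Of 3015 recomputed gene ratios, 12 turned round, and the cause was not tested. Thinning to 2000 UMIs gave Ly6c2 -0.98, Slc40a1 -0.56 and Alox15 0.29. Without the 1% of members with most UMIs, S100a8 was at -0.47, S100a9 at -0.68, Ccl17 at 0.51 and Alox15 at 0.059. Without Scrublet calls S100a9 was at -0.034. A C1q minimum of 20 UMIs gave Cxcl3 -1.15, and a minimum of 2 UMIs of Pf4, Ccl12 and Ccl8 gave Ccl17 2.74. Without the 5 cells per library holding most of the gene, Tbc1d4 was at 0.79 and Ccl17 at 1.49. Apoe stayed between -1.37 and -1.18 over all alternatives, Arg1 between 1.64 and 2.96 and Mmp12 between 1.42 and 2.51. Leaving out the members with T cell, NK cell or stromal RNA was the 1 alternative chosen after seeing the data. It left 283 of 6343 genes more than 1.5-fold higher and 318 lower.

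The CD11b difference between libraries, -0.75 over B cells, was -0.50 by medians, -0.59 without the 1% of members with most tags, and -0.64 as a raw mean. For CD14 it was -0.74 by medians and -0.46 raw, against -0.23. For CCR3 it was -0.20 without the 1% with most tags, against 0.18, and for Ly-6C 0.95 raw. Medians gave no value where that of the members or the B cells was 0.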
